A study of Caenorhabditis elegans with 2 samples.

Results

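The 44 axon guidance and neural adhesion genes of the nematode Caenorhabditis elegans were taken by name from the Ensembl annotation of assembly WBcel235, out of 19973 protein-coding nuclear genes, and all 44 names matched. They comprise 5 secreted cues, 6 membrane-bound cues, 9 receptors, 16 adhesion proteins, 7 intracellular effectors and 1 membrane protease. The measurement was chromatin immunoprecipitation sequencing (ChIP-seq), which recovers DNA bound by a protein, for the zinc finger homeodomain factor ZFH-2. All worms were of strain RW12167, in which allele st12167, inserted with CRISPR, places GFP on zfh-2 together with a loxP-flanked unc-119(+) marker, on an unc-119(tm4063) III background, and chromatin was sonicated. The samples' description names an antibody to GFP, while their antibody field reads zfh-2. Whole young adults at 64.5 hours, synchronised by bleaching and L1 starvation, made up 1 group of 2 biological replicates, so no comparison between conditions was possible.

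The deposited lists give peaks in build ce11, each with a summit (the position of highest signal), and the summits of the list that the authors named conservative were counted from 1000 bp upstream of each gene to its 3' end, here called the gene window. That list held 7085 nuclear summits, replicate 1's own thresholded list held 4281 peaks and replicate 2's held 4696. Each peak carries the authors' own signal value, used here to rank peaks within 1 list, and rank 1 is the strongest. The lists give no read counts, so the depth is unknown, and no control library was analysed here. In whole worms a site bound strongly in few cells and a site bound weakly in many cannot be told apart.

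Growing axons steer by cues that attract or repel them. Netrin (UNC-6), Slit (SLT-1), ephrins and semaphorins are read by the receptors DCC (UNC-40) and UNC-5, Robo (SAX-3), Eph (VAB-1) and plexins, and the signal passes through Rac GTPases and actin regulators to the growth cone. Adhesion proteins of the immunoglobulin, cadherin and neurexin families hold axons in place and pair synaptic partners. Many of these genes are long, with large introns and several annotated transcript starts.

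Of the 44 genes, 19 (43.2%, 95% Wilson interval 29.7 to 57.8%) had at least 1 summit in the gene window, against 19.5% of all protein-coding genes. Together they held 61 summits. Plexin plx-1 and the Trio exchange factor gene unc-73 had the most, with 6 each, followed by the Eph receptor gene vab-1 and the cadherin gene hmr-1 with 5 each. Of the 44 genes, 9.09% had 5 or more summits, against 0.746% of all protein-coding genes, most of which are shorter. In windows of 20 kb or more, members held 0.0913 summits per kb against 0.101 for all genes. The share with 5 or more was not counted by window length, and these 4 genes have windows from just under 20 kb to 59.9 kb. These 4 genes held 36.1% of the 61 summits, 13 genes had 2 to 4 summits, 2 had 1, and 25 had none.

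The gene windows of the list were long, with a median of 9.99 kb against 3.03 kb for all protein-coding genes, and in both the share with a summit was higher in each longer class. Among windows of 20 kb or more, 6 of 9 members (66.7%) and 69.1% of all 223 such genes had a summit. From 10 to 20 kb the shares were 6 of 12 and 50.6%, and from 5 to 10 kb they were 7 of 17 (41.2%) and 31.6%. None of the 6 members under 5 kb had a summit, against 14.4% of all genes of that length. Per kilobase of window the members held 0.0970 summits and all genes 0.0800, and from 20 kb up the values were 0.0913 and 0.101. Above 10 kb the members' share was thus close to that of all genes of like length, and the part of length in the difference from 19.5% was not tested further.

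**Figure D1:**
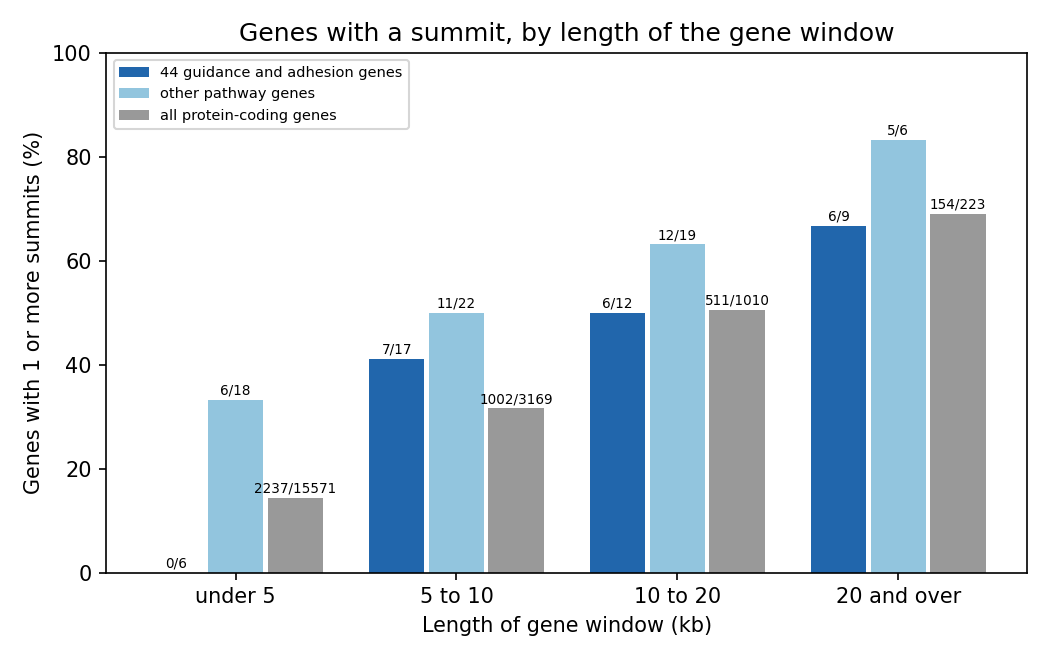
Percent of genes with 1 or more summits of the conservative list (y axis) by length of the gene window in kb (x axis), with counts above the bars, for the 44 guidance and adhesion genes, 65 other genes of the same pathways and all 19973 protein-coding genes. The members' bars stand at 66.7% for windows of 20 kb or more and at 6 of 12 genes from 10 to 20 kb, close to 69.1% and 50.6% for all genes.

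**Figure D2:**
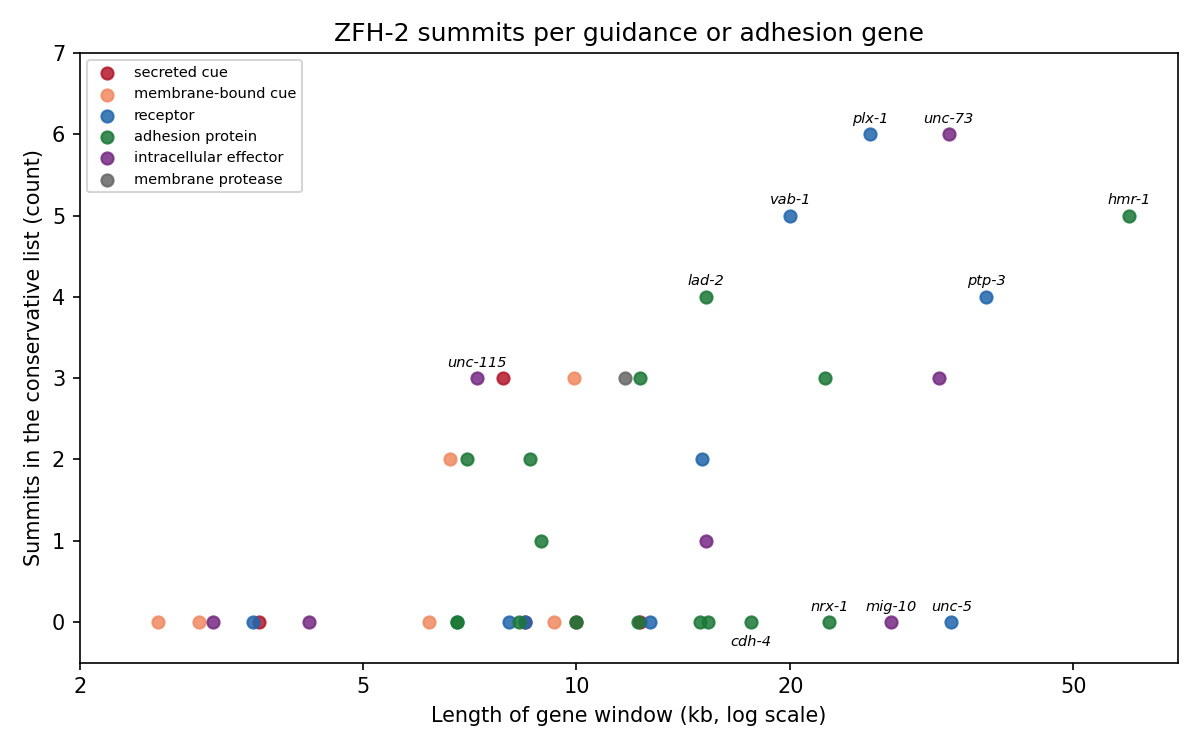
Number of summits in the conservative list (y axis) against the length of the gene window in kb on a log scale (x axis), 1 point per gene and coloured by role. The 4 genes with 5 or 6 summits are vab-1, with a window just under 20 kb, plx-1 (25.9 kb), unc-73 (33.4 kb) and hmr-1 (59.9 kb), while unc-5, mig-10, nrx-1 and cdh-4 are long and have none.

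The promoter window, which reached 1000 bp before the gene's 5' end and 200 bp into the gene, held a summit in 7 of the 44 genes (15.9%), against 8.82% of all protein-coding genes. These were mab-20, efn-4, vab-1, casy-1, igcm-3, unc-115 and unc-73. For gene windows of 5 to 10 kb the share was 23.5% of members (4 of 17) and 13.6% of all genes. From 10 to 20 kb it was 16.7% (2 of 12) and 12.8%. Below 5 kb it was 0 of 6 and 7.61%, and from 20 kb up 11.1% (1 of 9) and 7.17%. With the reach set to 2000 bp upstream, 15.9% of members and 13.6% of all genes had one. These differences were not tested. Of the 61 summits, 8 (13.1%) lay in the promoter window, 27 (44.3%) in coding exons, 25 (41.0%) in introns and 1 in an untranslated region. Over the 5891 summits in any gene window these shares were 28.5%, 45.5%, 24.1% and 1.80%. The shares rest on unlike rules, since a member summit was placed by the member gene alone. Over all gene windows, a summit in several windows took the first class that applied, promoters first and introns last. That rule moves shared summits toward promoters, but 57 of the 61 lay in no other protein-coding gene's window. Under it the lad-2 summits at 2969562 and 2971506 would count as promoter and coding exon. As counted, summits of these genes lay less in promoters and more in introns, a difference given without a test. The part of window length in it was not tested. Of the 25 intron summits, 20 lay in introns of 1 kb or more. The same share was not counted over all intron summits or over intron sequence, so no preference for long introns can be read from it.

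**Figure D3:**
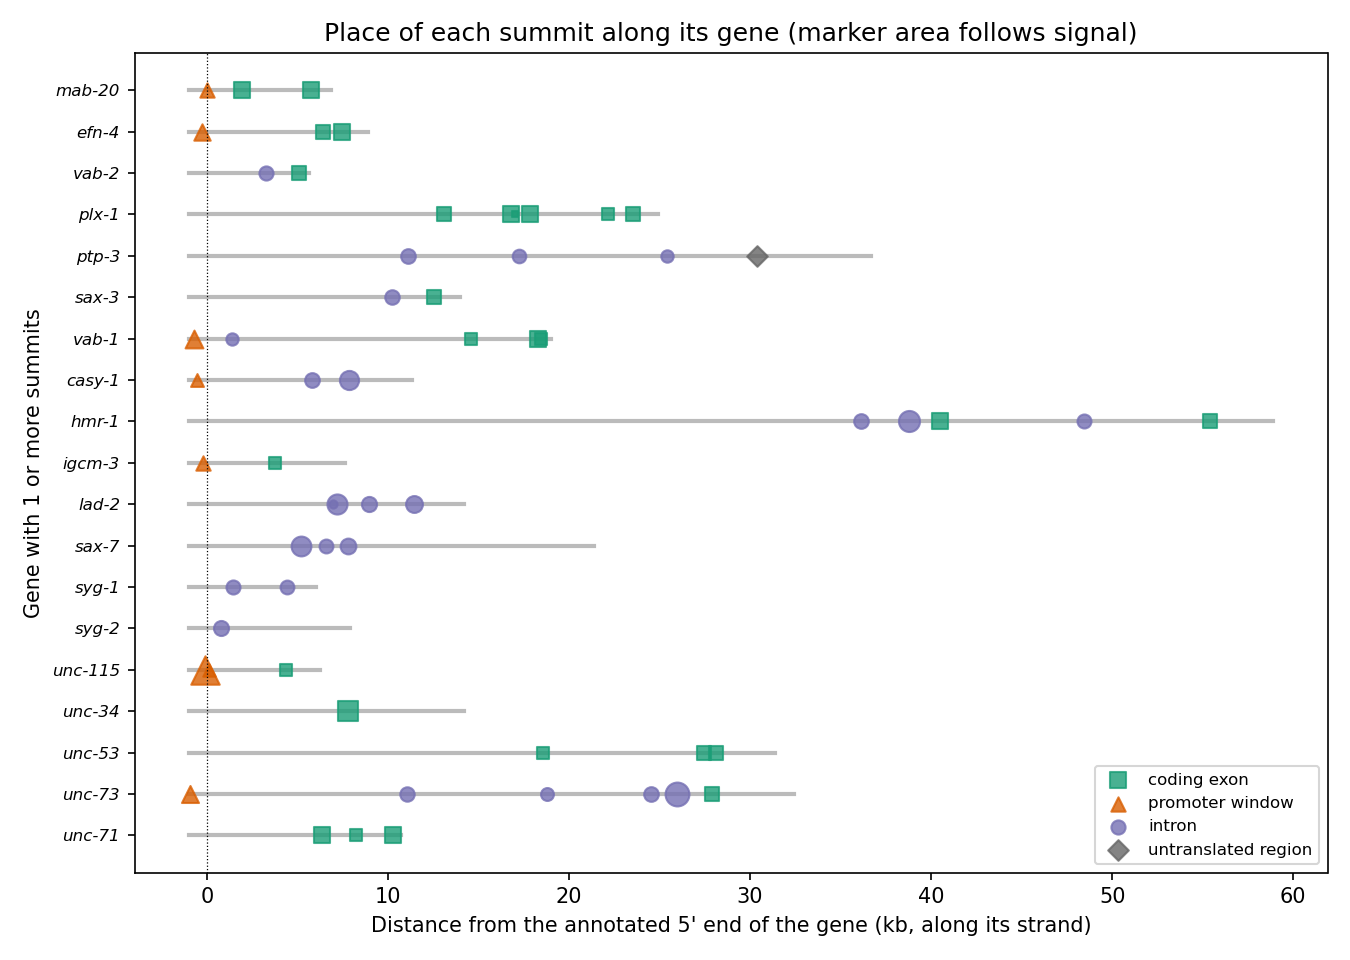
Position of the 61 summits along the 19 genes that have any, as distance in kb from the gene's annotated 5' end along its strand (x axis), 1 line per gene (y axis). The grey line is the gene window, colour and shape give the place, and marker area follows the authors' signal. Most large markers lie inside genes, with unc-115 the exception at the 5' end.

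The 7 strongest of the 61 summits sat at effector and adhesion genes. Of the 61, 7 (11.5%) ranked among the strongest 20% of the list, against 19.0% of summits in all gene windows. They belonged to unc-115, unc-73, hmr-1, unc-34, lad-2, sax-7 and casy-1. All 7 overlapped peaks in both replicates' own lists, as did 1107 of the 1121 summits of that class in all gene windows. No cue or receptor gene had a summit in that class, though the vab-1 promoter summit, at rank 1426, lay just outside it. The sequence within 50 bp of the summit is shown for 6 genes to let the base composition at strong summits of several roles be read directly. The sequences are read on each gene's coding strand, with an E-box form, CAGCTG, in capitals where it occurs. The unc-115 sequence spans chrX:10146743-10146843 (+ strand), unc-34 chrV:990435-990535 (+), lad-2 chrIV:2971254-2971354 (-), sax-7 chrIV:8067818-8067918 (+), vab-1 chrII:4571245-4571345 (+) and efn-4 chrIV:558894-558994 (+), from the RefSeq copy of WBcel235, whose coordinates are those of ce11.
unc-115: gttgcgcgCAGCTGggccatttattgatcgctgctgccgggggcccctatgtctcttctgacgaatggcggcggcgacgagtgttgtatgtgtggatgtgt
unc-34: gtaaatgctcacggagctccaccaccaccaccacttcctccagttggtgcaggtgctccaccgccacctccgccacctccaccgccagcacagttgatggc
lad-2: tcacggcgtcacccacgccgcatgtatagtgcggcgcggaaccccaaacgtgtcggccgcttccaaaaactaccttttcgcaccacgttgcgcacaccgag
sax-7: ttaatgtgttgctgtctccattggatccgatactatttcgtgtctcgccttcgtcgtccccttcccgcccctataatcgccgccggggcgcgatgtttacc
vab-1: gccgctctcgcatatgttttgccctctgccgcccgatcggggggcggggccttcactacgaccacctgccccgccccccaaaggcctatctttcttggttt
efn-4: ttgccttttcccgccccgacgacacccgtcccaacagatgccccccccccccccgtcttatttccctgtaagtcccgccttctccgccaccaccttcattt

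Their GC content ran from 55.4% (sax-7) to 64.4% (vab-1), with 59.4% at unc-115, 63.4% at unc-34, 61.4% at lad-2 and 62.4% at efn-4. All 6 lay above the genome's 35.4%. The windows shown were chosen to cover several roles and to lie off chromosome I, and those of vab-1 and efn-4 were outside the strongest 20%. The strongest summits of unc-73, hmr-1 and casy-1, within that class but not shown, had 50.5%, 56.4% and 49.5%. The unc-34 summit lies in coding sequence that repeats the letters ccacc, and the efn-4 window holds a run of 14 cytosines. Over the 61 summits the mean GC content within 50 bp was 54.3% ± 5.52 (SD, n = 61 summits), against 55.1% over all 7085 summits. By place it was 55.8% in promoter windows, 54.1% in coding exons and 53.9% in introns. Summits of different genes are not replicates of a condition.

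Motifs were searched on both strands within 50 bp of each summit. The E-box form CAGCTG occurred at 5 of 61 summits (8.20%, against 6.20% of all summits), in unc-115, mab-20, plx-1, ptp-3 and syg-1. The GA repeat GAGAGAGA occurred at 4 (6.56% against 4.02%), in mab-20, igcm-3, unc-73 and unc-115, the last at its coding exon summit of signal 78.7. The E-box form CACGTG occurred at 3 (4.92% against 3.81%), in vab-1, hmr-1 and unc-53. The homeodomain core TAATTA occurred at 1 (1.64% against 0.692%), the weak lad-2 summit at 2971506 of signal 20.9. TGACGTCA occurred at none (0.762% of all summits). No motif contains another, and 12 of the 61 windows held any of them, 1 window, at mab-20, holding 2. An unbroken run of 8 or more of the same base, G or C, occurred at 3 windows (4.92% against 2.63%). With so few windows these shares are descriptions only.

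Of the 5 secreted cue genes, 1 had a summit, a share near the 19.5% of all protein-coding genes. They held 0.0711 summits per kb of window, against 0.0800. Their median window was 8.47 kb, and 31.6% of all genes from 5 to 10 kb had a summit. The 1 gene with a summit was mab-20, which encodes a secreted semaphorin. It spans 1644588 to 1651457 of chromosome I (minus strand) and had 3 summits in a window of 7.87 kb, at 1645721 (signal 141, rank 2576), 1649537 (126) and 1651437 (112), the last 20 bp downstream of the 5' end. The first 2 lie in coding exons and had signals of 70.2 and 71.2 in replicate 1's own list and 74.5 and 55.3 in replicate 2's. The third was in replicate 2's own list alone (50.6). The netrin gene unc-6 (8.47 kb), the Slit gene slt-1, the TGF-beta family gene unc-129 (3.57 kb) and the punctin gene madd-4 (12.3 kb), whose product organises neuromuscular synapses, had no summit in the conservative list or in either own list. The nearest summit to the slt-1 window lay 1.27 kb past it, and for madd-4 and unc-129 the nearest was 35.4 and 23.3 kb away.

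Among the 6 membrane-bound cues, 2 ephrin genes had summits (33.3%, against 19.5% of all protein-coding genes). The class held 0.133 summits per kb of window, against 0.0800. Its median window was 6.42 kb, and 31.6% of all genes from 5 to 10 kb had a summit. The gene efn-4 (chromosome IV, 559234 to 568147) had 3, at 558944 (signal 154, rank 2190), 566703 (143) and 565629 (99.0). The first lies at -290 bp from the 5' end, inside the annotated non-coding RNA genes F56A11.8 and F56A11.11, with a signal of 77.1 in replicate 1's own list and 77.0 in replicate 2's. The others lie in coding exons toward the 3' end, 566703 in replicate 2's own list alone and 565629 in neither. The ephrin gene vab-2 (IV, 3761195 to 3766826) had a coding exon summit at 3761753 (111, replicate 1's own list alone) and an intron summit at 3763593 (109, replicate 2's alone). The ephrin genes efn-2 and efn-3 and the transmembrane semaphorin genes smp-1 and smp-2 had none, in any of the 3 lists, and the summit nearest to the smp-1 window, of signal 220, lay 1.42 kb upstream of it.

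Receptors held 17 summits in 4 of 9 genes (44.4%), or 0.103 per kb of window, against 19.5% and 0.0800 for all protein-coding genes. Their median window was 15.0 kb, and 50.6% of all genes from 10 to 20 kb had a summit. The Eph receptor gene vab-1 (II, 4572000 to 4590970) had 5, of which the strongest, at 4571295, lay at -705 bp from its 5' end (signal 186, rank 1426, 87.4 in replicate 1 and 97.2 in replicate 2). A coding exon summit near the 3' end at 4590260 had 131 (87.6 and 63.1 in the own lists). The remaining 3, at 4586573, 4573383 and 4590471, were weaker, from 72.2 to 78.8, and the last lies 211 bp from 4590260. The plexin gene plx-1 (IV, 959521 to 984395), a semaphorin receptor, had 6 summits, all in coding exons of its second part, from 13083 to 23538 bp downstream of the 5' end. Their signals were 135, 130, 122, 93.4, 77.9 and 5.00, and the strongest (977370) had 64.0 in replicate 1's own list and 71.3 in replicate 2's. The summit at 976303 (130) had 80.8 and 49.9, and its weak neighbour at 976508 (5.00) overlapped the same replicate peaks. Of the rest, 972604 (122) was in replicate 1's own list alone (79.2), and 983059 (93.4) and 981681 (77.9) were in neither.

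The receptor phosphatase gene ptp-3 (II, 10975539 to 11012247), related to LAR, had 4 summits in a window of 37.7 kb. Those at 10986670 (119, rank 3577), 10992790 (99.3) and 11000946 (78.4) lie in introns 13 and 19, which span more than 7 kb each, and were in neither own list. The summit at 11005942 (117) lies in an untranslated region and was in replicate 1's own list alone (64.2). The Robo gene sax-3 (X, 3451908 to 3465927) had an intron summit at 3455698 (116, in replicate 1's own list with 77.3) and a coding exon summit at 3453398 (90.9, in neither). The netrin receptor genes unc-40 (12.7 kb) and unc-5 (33.7 kb), the receptor phosphatase gene clr-1, the second plexin gene plx-2 and dma-1, whose product guides dendrite branching, had no summit. Together the 3 netrin system genes spanned 54.8 kb of window with none, while the 5 ephrin and Eph genes held 10 in 42.0 kb and the 5 semaphorin and plexin genes 9 in 57.3 kb. All protein-coding genes held 0.0800 summits per kb. Of the 10, 5 were in vab-1 alone, and of the 9, 6 were in plx-1 alone. These differences between small sets were not tested. The window of unc-5 held no entry even in the replicates' long ranked lists, as was the case for 14.3% of all genes of 20 kb or more. Its GC content was 32.2%, against a median of 33.6% in genes of that length without a summit and 36.1% in those with one. The ranges, 29.2 to 40.8% without a summit and 29.6 to 43.7% with one, overlapped almost fully. Whether GC content has a part in the empty unc-5 window was not tested.

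Adhesion genes held 20 summits in 7 of 16 genes (43.8%, against 19.5% of all protein-coding genes). Per kb of window they held 0.0803, near the 0.0800 of all genes. Their median window was 12.2 kb, and 50.6% of all genes from 10 to 20 kb had a summit. The classical cadherin gene hmr-1 (chromosome I, 11075755 to 11134667) had the longest window, 59.9 kb, and 5 summits, all at least 36121 bp downstream of its 5' end. The strongest, at 11095913 (signal 269, rank 510), lies in intron 21 of the longest transcript, which is 18310 bp long, at -1387 bp from another annotated 5' end. It had 146 in replicate 1's own list (rank 601) and 123 in replicate 2's (rank 575). A coding exon summit at 11094166 had 155 (83.8 and 70.6 in the own lists), and an intron summit at 11098546 had 119 (62.2 and 57.0). The coding exon summit at 11079271 (119) was in replicate 2's own list alone (54.6), and the intron summit at 11086246 (106) was in neither. The L1 family genes lad-2 (IV, 2964334 to 2978484) and sax-7 (IV, 8062659 to 8084087) had only intron summits. SAX-7 is known to maintain the position of axons and cell bodies, and LAD-2 to act in axon guidance.

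The strongest lad-2 summit, at 2971304 (signal 243, rank 687, 117 and 128 in the own lists), lies in intron 9 and also within Y54G2A.57, a gene on the opposite strand. Of the other lad-2 summits, 2969562 (signal 128, 67.2 and 58.5 in the own lists) and 2971506 (20.9, in the same peak as the strongest) also lie in the window of that gene. The summit at 2967056 (165, in replicate 2's own list alone with 79.7) does not. The strongest sax-7 summit, at 8067868 (236, rank 754), lies in intron 5, 5209 bp downstream of the 5' end, with 117 in replicate 1 and 120 in replicate 2. Others at 8070439 (141, 84.5 in replicate 1 and 57.6 in replicate 2) and 8069245 (104, in replicate 1's own list alone) lie in introns 6 and 5.

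The calsyntenin gene casy-1 (II, 5945405 to 5956683) had its strongest summit in intron 8 at 5948821 (219, rank 944), with 129 and 91.3 in the own lists. Others lay in the same intron (120, in replicate 1's own list alone) and at -556 bp from the 5' end (85.8, in neither). The synaptic partner genes syg-1 and syg-2 had 2 and 1 intron summits of 103 to 126, each in introns of 495 to 501 bp, and of these the syg-2 summit was in replicate 2's own list (71.4) and the others in neither. The immunoglobulin gene igcm-3 (X, 2698257 to 2705859) had a summit at -241 bp (113, in replicate 1's own list with 73.6) and another in a coding exon (81.2). The neurexin gene nrx-1 (22.7 kb), the neuroligin gene nlg-1, the Flamingo cadherin gene fmi-1, the Fat-like cadherin gene cdh-4 and the immunoglobulin genes rig-1, rig-3, rig-5, rig-6 and igcm-1 had none. The synaptic set nrx-1, nlg-1 and madd-4 covered 41.8 kb of window. A summit of signal 289 lay 0.945 kb past the 3' end of igcm-1.

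Intracellular effectors held 13 summits in 4 of 7 genes (57.1%), or 0.105 per kb of window, against 19.5% and 0.0800 for all protein-coding genes. Their median window was 15.2 kb, and 50.6% of all genes from 10 to 20 kb had a summit. Of the 13 summits, 6 (46.2%) were in neither own list, against 28.4% over all gene windows. Effector genes also held the 2 strongest summits of all 44 genes. The first was at unc-115 (X, 10146892 to 10153142), which encodes an actin-binding abLIM protein, at -99 bp from the 5' end (10146793) with signal 510 (rank 69 of 7085). It had 283 in replicate 1's own list (rank 68) and 226 in replicate 2's (rank 76), near the head of each list. The gene had the most summits per length of the 44, 0.414 per kb of window, but 1 of its 3 summits is a weak neighbour at 10146997, of signal 79.2, that lies 204 bp from the first, and the third, in a coding exon at 10151247 (signal 78.7), was in neither own list.

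The second was in unc-73 (chromosome I, 3999300 to 4031739), which encodes a Trio exchange factor for Rac, at 4005791 with signal 352 (rank 224, 213 and 144 in the own lists). It lies in intron 20 of the longest transcript, within F55C7.2, a nested gene on the opposite strand from 4005435 to 4006019. A summit at 4032663, -924 bp from the 5' end, had 167 (106 and 59.8). The intron summits at 4007208 (119, 59.3 in replicate 2) and 4020690 (114, 76.7 in replicate 1) were each in 1 own list. The coding exon summit at 4003820 (112) and the intron summit at 4012974 (87.4) were in neither. The Ena/VASP gene unc-34 (V, 982706 to 996914) had 1 summit, in a coding exon at 990485 (264, rank 539), with 136 in each replicate's own list. The navigator gene unc-53 (II, 11058047 to 11089456) had 3 coding exon summits, the strongest with signal 95.2, none of them in an own list. The Rac genes ced-10 and mig-2 and the lamellipodin gene mig-10 had none in the conservative list. The ADAM protease gene unc-71 (III, 12881043 to 12891738) had 3 summits, all in coding exons. Those at 12885367 (signal 146, 72.5 and 73.6 in the own lists) and 12881460 (127, 71.9 and 62.2) were in both own lists, and that at 12883526 (67.7) was in replicate 2's alone (71.7).

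Several summits inside genes lay just upstream of another annotated transcript start, a comparison chosen after seeing the data. Within 50 bp upstream of such a start there was a summit at 5 of the 74 other 5' ends of the 44 genes (6.76%), against 0.774% of 6201 such ends in all protein-coding genes. Counted from that start, they were at -40 bp in mab-20, -10 bp in casy-1, -46 bp in unc-34, -2 bp in unc-53 and -26 bp in unc-73. With the reach set to 200 bp the shares were 9.46% and 2.84%, and at 1000 bp they were 12.2% and 10.4%. As the comparison was chosen after seeing the data, these shares cannot place a difference at any reach. Summits outside promoter windows were also counted from 1000 bp upstream to 200 bp downstream of another 5' end. There lay 11.3% of the members' summits and 11.5% of those of all genes. In genes with 2 or more 5' ends these shares were 14.0% and 20.4%. The starts at casy-1 and unc-73 begin with an annotated untranslated region, while those at mab-20, unc-34 and unc-53 begin at coding sequence, so that the annotated start is that of the coding sequence. Many C. elegans transcripts receive a spliced leader, so an annotated 5' end need not be where transcription starts. The summits at mab-20, casy-1 and unc-34 overlapped peaks in both own lists, that at unc-73 in replicate 1's alone and that at unc-53 in neither.

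By own lists, 17 of 44 genes (38.6%) had a summit in replicate 1, against 14.0% of all genes, 15 (34.1%) in replicate 2, against 14.7%, and 13 (29.5%) in both, against 11.4%. Of the 44 genes, 29 had the same number of summits in each own list, but 25 of these had none in either. Of the rest, 9 had more in replicate 1 and 6 more in replicate 2, and the largest difference was 2. Of the 61 conservative summits, 25 (41.0%) had a peak overlapping both own lists, 8 one in replicate 1's alone, 8 one in replicate 2's alone and 20 (32.8%) one in neither, against 47.7% in both and 28.4% in neither for all gene windows. Summits in both own lists had a median rank of 2576, those in neither 5376, and the best of the latter was rank 3577. Every one of the 61 overlapped an entry of both replicates' long ranked lists, which adds no support, since the conservative list was kept for peaks found in both. Across the 58 merged regions, replicate 1's ranked signal and replicate 2's had a Spearman correlation of 0.661 (Pearson 0.805 on log10 values), given as a description, since the regions come from the same 2 libraries and were kept for being found in both.

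**Figure D4:**
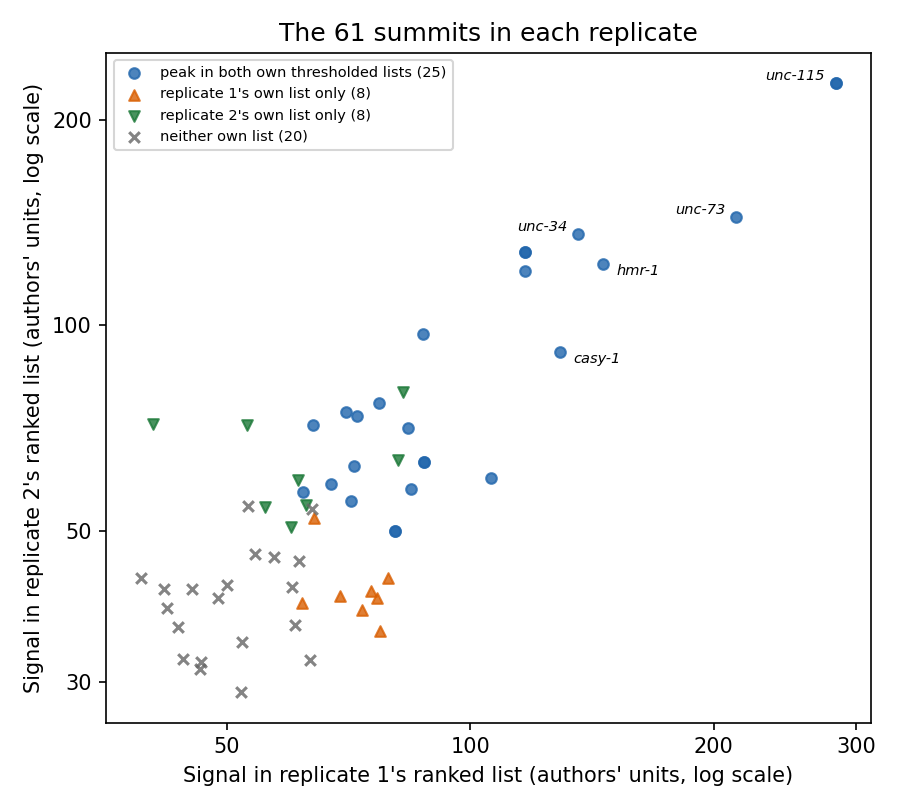
Signal of the strongest overlapping entry in replicate 1's ranked list (x axis) and in replicate 2's (y axis), both in the authors' units on log scales, for the 61 summits, marked by the own thresholded lists that contain an overlapping peak. The scaling is per list, and 4 pairs of close summits share a point. The strongest summits of unc-115 and unc-73 stand highest in both, and the 20 summits in neither own list lie at or under 63.8 in replicate 1 and 54.3 in replicate 2.

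Pairs of summits under 600 bp apart occurred in vab-1, plx-1, lad-2 and unc-115, at 202 to 211 bp, each with the weaker summit at the higher coordinate, and both summits of a pair overlapped the same replicate peaks. Own lists also held summits that the conservative list lacks. In replicate 1 there were 35 summits in these gene windows and 22 (62.9%) overlapped a peak of replicate 2's own list, against 76.4% of all replicate 1 peaks. In replicate 2 there were 33 and 23 overlapped (69.7%, against 70.7%). Those outside the conservative list were 5 in replicate 1, at sax-7, hmr-1 (2 summits), unc-53 and unc-71, and 1 in replicate 2, at mig-10. The strongest was in an intron of sax-7 at 8080064, with signal 105 (rank 1325) in replicate 1 and no entry in replicate 2's ranked list. The mig-10 summit at 8287696 had 59.5 in replicate 2 and 2.74 in replicate 1's ranked list.

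Of the 25 genes without a conservative summit, the median distance from the window to the nearest summit was 13.1 kb, from 0.945 to 71.2 kb, and 6 had one within 5 kb. In the long ranked lists 15 of the 25 had an entry in replicate 1 and 16 in replicate 2, with a median best rank of 15418 of 33033 and 14772 of 32103. The window GC content had a median of 35.8% in these 25 genes and 37.9% in the 19 with a summit, against 35.7% over all protein-coding genes. Whether base composition has a part in which genes had a summit was not tested. By chromosome, 5 of 13 members on X had a summit (against 22.2% of all protein-coding genes there), 5 of 9 on IV (17.2%), 4 of 7 on II (20.5%), 3 of 9 on I (25.8%), 1 of 3 on III (24.1%) and 1 of 3 on V (13.0%).

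Another 65 genes of guidance, adhesion and neurite growth were counted in the same way (66 names, of which 65 matched). Of these, 34 (52.3%) had a summit, with 84 in all, 0.124 per kb of window, and 12 (18.5%) had one in the promoter window. From 10 to 20 kb, 63.2% had a summit, against 6 of 12 members. The strongest were at the alpha-catenin gene hmp-1 (signal 228), which links cadherins to actin, the heparan sulfate sulfotransferase gene hst-6 (227), and the actin regulators wsp-1 (221) and wve-1 (215). The members' share was below that of this list, a difference that was not tested.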

How the data were processed

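Peak lists from ChIP-seq of 2 biological replicates (1 group) were used as deposited. Per the file headers and labels, the authors kept peaks by irreproducible discovery rate in build ce11, for each replicate alone and for both together. An aligner, a peak caller and a control library were not given in the sources used here. The deposited score is at most 1000. The deposited peak signal has no stated scaling and served only for ranks within a list and a correlation. Depth is unknown, and intervals cover counting only.

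The summit was the peak start plus the listed offset, written 1-based. Gene positions came from Ensembl release 115 and sequence from RefSeq WBcel235, both of the same assembly as ce11, with no peak beyond a chromosome's end. The 2 mitochondrial peaks were left out. Each summit was placed in the promoter window first, otherwise in a coding exon of any transcript, then in an untranslated region and last in an intron. Member summits were placed by the member gene alone. In the shares over all gene windows, a summit in several windows took the first of these classes found in any. Peaks overlapped by at least 1 bp. With 1 group and a chosen list, no test was made. Alternatives were the authors' other series list, each replicate's own list, stronger peaks, peaks in both own lists, merged regions, peak overlap, other upstream reaches and unshared summits. The series' ranked lists were not used. Of 66 other pathway names, 65 matched and enu-3 did not. The members, roles and lists were chosen with earlier results of these data known. Full values were given for the 3 members with the strongest summits of each role and each member with 5 or more summits, and all 44 were named. The counting was tested on simulated data. Work was done in Python 3.11.15, NumPy 2.4.6, SciPy 1.17.1 and matplotlib 3.10.9.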

Additional observations from a re-analysis of the deposited data

How the results depend on the processing

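No paired analysis was possible because there is 1 group. The count of genes with a summit was 19 also with the authors' other series list, 1 summit per merged region, any peak overlap, 500 or 2000 bp upstream and summits in no other gene's window, and the count was 15 to 17 in the replicates' own lists (leaving out each replicate in turn), 13 with the stronger 50% of peaks and 12 with peaks in both own lists. The share of all protein-coding genes was lower there too, at 14.0% and 14.7% in the own lists, 12.4% with the stronger peaks and 10.9% with peaks in both, against 19.5%. The 61 summits became 33 to 35 in the replicates' own lists, 26 with the stronger 50% of peaks and 25 with peaks in both own lists. The 7 genes with a promoter summit became 4 with the stronger 50% of peaks, 4 with 500 bp upstream and 4 with peaks in both own lists, and 5 in each replicate's own list. Of all protein-coding genes the share was 5.49%, 5.87% and 4.81% there, and 6.47% and 6.23% in the own lists, against 8.82%. The cause was not tested, except that these settings hold fewer peaks or a shorter window. The 25 summits shared with both own lists became 24 when the overlap had to reach 50% of the shorter peak, and mean GC was 54.1% within 25 bp and 52.8% within 100 bp.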
